A study of Drosophila melanogaster with 5 samples.

Results

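The 10 genes described here encode proteins of synaptic vesicle fusion: the SNAREs nSyb, Syx1A and Snap25, the synaptotagmins Syt1, Syt4 and Syt7, and the release regulators Rop, cpx, Syn and comt. They were matched by gene symbol, and they were chosen with earlier results of these data known. All 10 were found, under these symbols, among the 16510 genes of the FPKM table and the 16680 genes of the normalized count table. RNA was sequenced from the central nervous system (CNS) of Drosophila larvae in the third instar, at 84 h after egg laying, with about 15 CNS pooled in each library. The knockdown group had 2 libraries of the genotype ElavC155GAL4/+; UAS-dsitpr/+; UAS-dicer/+, and the control group had 3 libraries of the genotype UAS-dsitpr/+; UAS-dicer/+. Both groups therefore carried the transgenes for RNAi against the inositol trisphosphate receptor (IP3R) and for Dicer-2, and they differed in the GAL4 driver. In the labels, and where the study presents these data, this driver is ElavC155GAL4, which is active in neurons throughout the nervous system. The methods text of the study alone names VGN6341GAL4, a driver of glutamatergic neurons, for these libraries. The samples were whole CNS, so glia and undriven cells are part of every value.

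The deposited tables hold 1 mean per group and 0 columns with a value for a single library. The tables also carry the authors' own test results, which were not used. From the means alone no spread between libraries, error or new test could be computed for any gene, and whether the libraries of the groups overlapped cannot be seen. The comparisons below are ratios of the authors' means, knockdown over control. A gene was called lower at a mean at least 25% below control (a ratio of at most 0.75) and higher at a mean at least 25% above control, the minimum change that the study used. This rule measures size only. FPKM, fragments scaled to transcript length and library size, allow levels of different genes to be compared, whereas normalized counts also grow with transcript length. Both tables were made from the same libraries, so their agreement is no replication.

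Neurotransmitter is released when a synaptic vesicle fuses with the presynaptic membrane. A SNARE of the vesicle zips together with SNAREs of the plasma membrane into a tight bundle that draws the membranes together, and synaptotagmins bind Ca2+ and couple its entry to the last step of fusion. Sec1/Munc18 proteins such as Rop hold and template the syntaxin, complexin arrests and then aids the partly zipped bundle, and the ATPase NSF takes the spent bundles apart for reuse.

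Across the whole series, mean normalized counts summed to 11937845 in the knockdown group and 12742543 in the control group. The IP3R gene, listed as Itp-r83A, had 15.0 FPKM in knockdown CNS and 24.7 FPKM in control CNS, a ratio of 0.61, and its normalized count ratio was 0.66. Dcr-2, which the UAS-dicer transgene encodes, had 96.7 FPKM in knockdown CNS and 31.3 FPKM in control CNS, so Dicer-2 expression differed between the groups as well. Of all genes above 0 in both groups, 16.7% were lower and 16.9% higher in both tables. Of 8 neuron marker genes, 5 were lower and none was higher in both tables, and their summed level was 364 FPKM in knockdown CNS and 458 FPKM in control CNS. Among them elav, whose locus carries the driver insertion named in the labels, stood at a FPKM ratio of 0.59 and a count ratio of 0.72. The FPKM ratios of the other 4 lower markers were 0.39 for Rbp9, 0.70 for Appl, 0.71 for ChAT and 0.74 for VAChT, and fne stood at 1.05. Of 6 glia markers none was lower or higher, with summed levels of 653 FPKM in knockdown CNS and 635 FPKM in control CNS. Markers of other tissues were lower: 8 of 8 genes of muscle (492 FPKM summed in knockdown and 799 FPKM in control), 5 of 6 of fat body (215 and 504 FPKM in the same order) and 4 of 6 of salivary gland (14.6 FPKM in knockdown and 193 FPKM in control), with Sgs5 listed at 0 in the knockdown group. Muscle, fat body and salivary gland are not parts of the CNS, and how much of these tissues each pool held is not known. In such bulk samples fewer cells of a type and less RNA per cell cannot be told apart. The part that the lower neuron markers have in the ratios of the release genes was not tested.

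All 10 release genes were well above 1 FPKM in both groups, with 22.3 to 146 FPKM in knockdown CNS and 16.9 to 157 FPKM in control CNS. The Syx1A transcript, for a plasma membrane SNARE, had a FPKM ratio of 0.52, the lowest of the 10. Syn was the other lower gene, Syt7 was the only higher one, and the remaining 7 lay between the limits. Summed over the 10 genes, the level was 701 FPKM in knockdown CNS and 768 FPKM in control CNS. The number called was the same in both tables, 2 lower and 1 higher. Of all genes above 0 in both groups, 19.3% were lower and 20.3% were higher by FPKM, 21.0% were lower and 18.4% higher by normalized counts, and 16.7% were lower and 16.9% higher in both tables at once. Among the 10810 genes of at least 1 FPKM in both groups, to which all 10 belong, 15.2% were lower and 13.0% higher by FPKM. With 20% of the 10 lower and 10% higher, the share of release genes past the rule lay near that of all genes. The median log2 ratio of the 10 genes was -0.09 by FPKM and -0.05 by normalized counts, and that of all genes above 0 was 0.04 and 0.03.

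**Figure D1:**
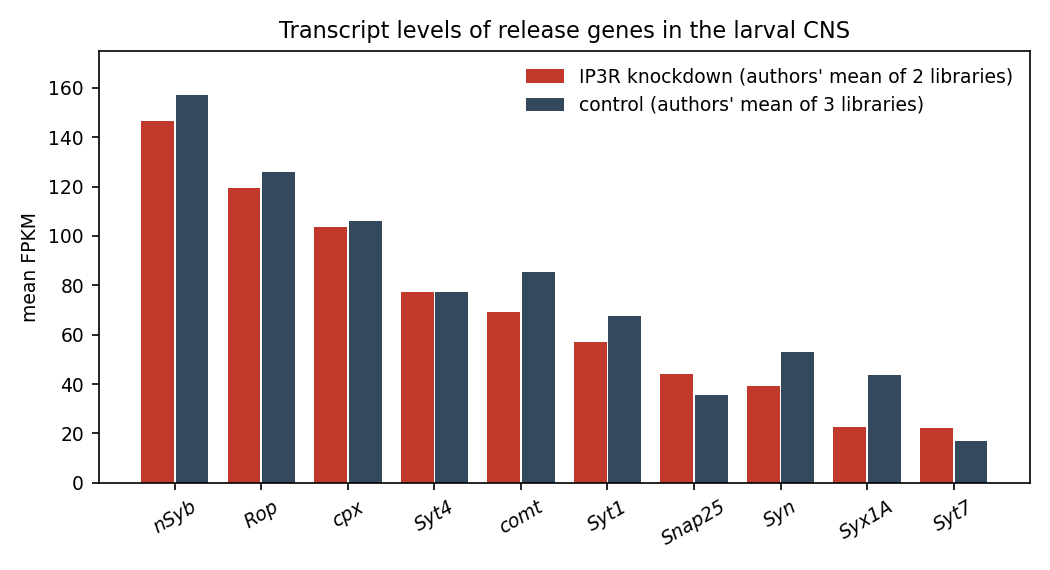
Mean FPKM (vertical axis, from 0) of the 10 release genes, ordered by their level in the knockdown CNS. Red bars are the authors' mean of the 2 knockdown libraries and dark bars that of the 3 control libraries, with no error bars because no value per library was used. nSyb is highest in both groups (146 and 157 FPKM), and Syx1A shows the widest gap (22.6 and 43.6 FPKM).

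The 3 SNAREs of release had unlike ratios. nSyb, the neuronal synaptobrevin of the vesicle, lies on chromosome 3L from 1630348 to 1637752 (minus strand; here and below, dm6 coordinates of Ensembl release 115). By FPKM it was the most abundant of the 10 genes in both groups, with 146 FPKM in knockdown CNS and 157 FPKM in control CNS. Of all genes above 0, 95.8% and 97.3% had lower FPKM in these groups. By normalized counts per kilobase of annotated exon nSyb was number 4 of the 10 in both groups. Its FPKM ratio was 0.93, and with 3228 normalized counts in knockdown CNS and 3343 in control CNS its count ratio was 0.97. Transcripts of the vesicle SNARE were thus present at close to the control level.

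Syx1A, the syntaxin of the presynaptic plasma membrane, lies on chromosome 3R from 24101600 to 24105763 on the minus strand, and its annotated exons merge into 1 block of 4164 bases. Its mean level was 22.6 FPKM in knockdown CNS and 43.6 FPKM in control CNS, a ratio of 0.52 and a log2 ratio of -0.95. The mean normalized counts were 647 in knockdown CNS and 1157 in control CNS, a ratio of 0.56 and a log2 ratio of -0.84. Of the genes of at least 1 FPKM, 5.16% had a lower FPKM ratio than Syx1A. In rank of FPKM among the 10 genes Syx1A was number 9 in knockdown CNS and number 8 in control CNS. By normalized counts per kilobase of annotated exon Syx1A was number 10 in knockdown CNS and number 9 in control CNS. It lies inside the span of eIF4EHP, a gene on the same strand with which it shares 447 exon bases. The files list this gene, which encodes a cap-binding protein, as 4EHP. It had 70.0 FPKM in knockdown CNS and 65.1 FPKM in control CNS, so it was not lower, and reads of the shared bases may have been assigned to either gene. The FPKM table lists a further gene at this locus, CG10694, with 0.557 FPKM in knockdown CNS and 0.973 FPKM in control CNS, a ratio of 0.57, and a count ratio of 0.83.

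Snap25, the other plasma membrane SNARE of release, contributes a pair of helices to the bundle. It spans 3L from 24074180 to 24299205 on the plus strand, close to the centromere, with only 2282 exon bases. Its level was 44.0 FPKM in knockdown CNS and 35.4 FPKM in control CNS, and its normalized counts were 1275 in knockdown CNS and 1051 in control CNS. The ratios, 1.24 and 1.21, lay just inside the limit of 25% above control. Of Syx1A and Snap25, partners in one complex at the plasma membrane, Syx1A was past the rule and Snap25 was not. In FPKM, Syx1A amounted to 0.51 of Snap25 in knockdown CNS and to 1.23 of Snap25 in control CNS. Per kilobase of annotated exon in normalized counts, the same quotient was 0.28 in knockdown CNS and 0.60 in control CNS. The quotient was lower in knockdown CNS by both measures, which differ in read assignment as well as in length. Relative to nSyb, Syx1A amounted to 0.15 in knockdown CNS and 0.28 in control CNS by FPKM. These quotients describe transcripts and not proteins.

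**Figure D2:**
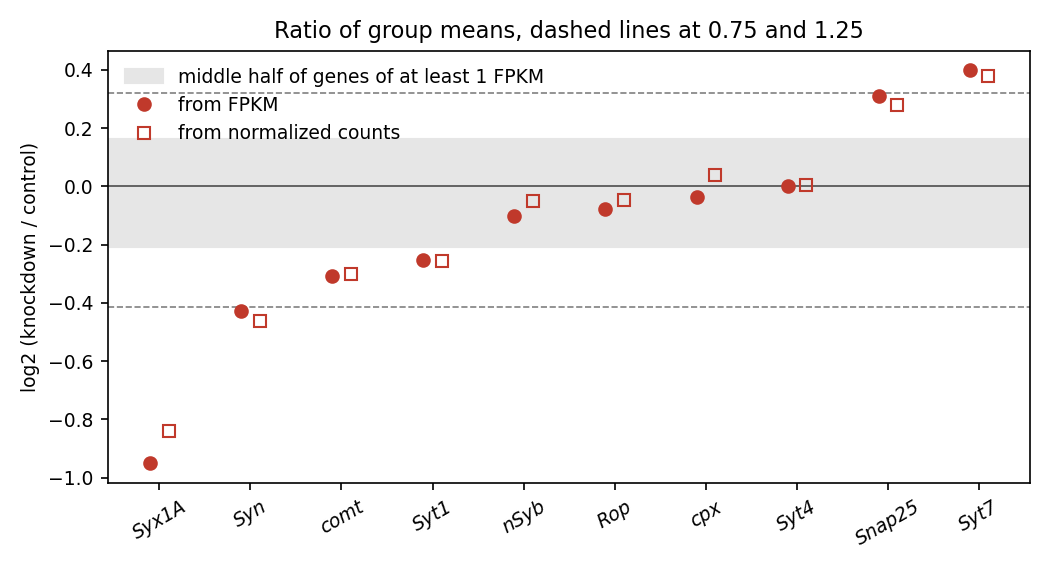
Log2 ratio of knockdown to control (vertical axis) for the 10 release genes, from the authors' mean FPKM (filled circles) and mean normalized counts (open squares). Dashed lines mark 25% below and above control, and the grey band is the interquartile range of genes of at least 1 FPKM. Syx1A lies lowest at -0.95, Syn next at -0.43, and Snap25 and Syt7 lie above the band at 0.31 and 0.40.

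Among the synaptotagmins, the ratio differed from one gene to the next. Syt1, the Ca2+ sensor of fast evoked release, lies on 2L from 2772327 to 2799979 on the minus strand. It had 56.9 FPKM in knockdown CNS and 67.8 FPKM in control CNS, a ratio of 0.84, and 3101 normalized counts in knockdown CNS and 3704 in control CNS, also a ratio of 0.84. This was inside the limits, with 22.5% of genes of at least 1 FPKM at a lower ratio.

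Syt4, which in the fly is found on dense core vesicles and in the muscle at the neuromuscular junction, lies on 3R from 7266065 to 7270809 on the plus strand and has 1 annotated transcript. Its levels were nearly equal, 77.4 FPKM in knockdown CNS and 77.2 FPKM in control CNS, and 2805 and 2795 normalized counts in the same groups. Both ratios were 1.00, the closest to 1 among the 10 genes.

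Syt7, a relative that in mammals binds Ca2+ with high affinity and serves slower release, lies on chromosome 4 from 278685 to 306481 on the minus strand. By FPKM it was the least abundant of the 10 genes in both groups, with 22.3 FPKM in knockdown CNS and 16.9 FPKM in control CNS. By normalized counts per kilobase of annotated exon it was number 9 in knockdown CNS and number 10 in control CNS. The FPKM ratio was 1.32, and with 754 normalized counts in knockdown CNS and 580 in control CNS the count ratio was 1.30. By FPKM, Syt7 amounted to 0.39 of Syt1 in knockdown CNS and 0.25 of Syt1 in control CNS.

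Both of the genes with the highest ratios lie in regions whose median ratio was above that of all genes. Of 35 genes of at least 1 FPKM that begin beyond 23 Mb on 3L, near the centromere, where Snap25 lies, 32 had a FPKM ratio above 1, 25 were higher and 1 was lower. Their median ratio was 1.34, against 1.03 for the 2070 other genes of 3L, and 26 of the 35 had a higher ratio than Snap25. Of 88 such genes on chromosome 4, where Syt7 lies, 64 had a ratio above 1, 38 were higher and 6 were lower, with a median of 1.18, and 28 had a higher ratio than Syt7. Of all 10810 genes of at least 1 FPKM, 5995 had a ratio above 1, 1404 were higher and 1644 were lower, with a median of 1.02. Of the other genes of vesicle fusion on chromosome 4, unc-13, which primes vesicles for fusion, had ratios of 1.03 by FPKM and 1.09 by normalized counts, and Cadps, which acts in release from dense core vesicles and which the files list as Caps, had 1.17 and 1.18. The part of the chromosome region in the ratios of Snap25 and Syt7 was not tested.

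**Figure D3:**
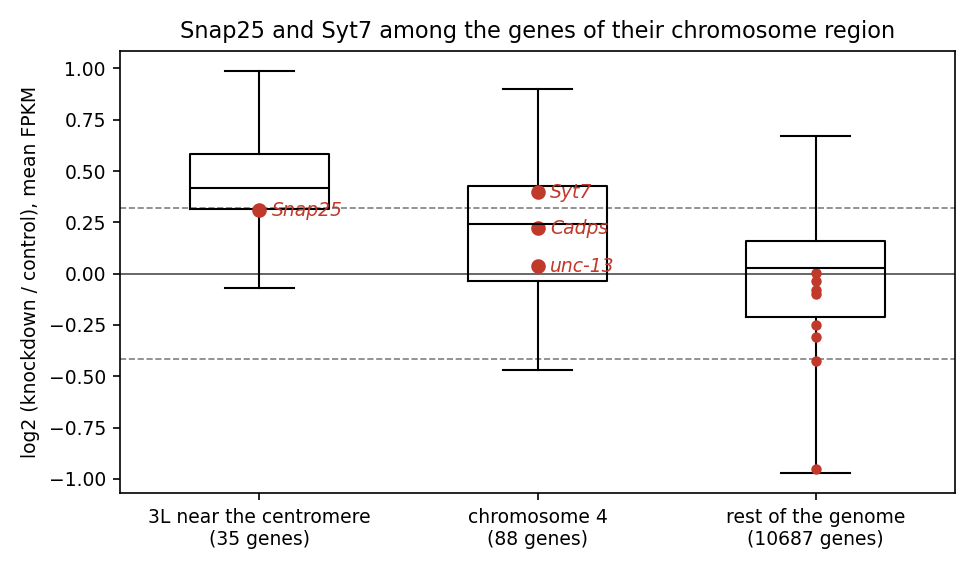
Log2 ratio of knockdown to control in mean FPKM (vertical axis) for genes of at least 1 FPKM, in the part of 3L near the centromere (35 genes), on chromosome 4 (88 genes) and in the rest of the genome. Boxes show the interquartile range with the median, whiskers the range from percentile 5 to percentile 95, dashed lines 25% below and above control, and red points the release genes with unc-13 and Cadps added. Snap25 lies below and Syt7 above the median of its own region, and the medians of both regions lie above that of the rest.

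Of the 4 release regulators, Syn was the one past the rule. Syn encodes synapsin, which coats vesicles and tethers the reserve pool, and lies on 3R from 10190689 to 10222442 on the plus strand. It had 39.3 FPKM in knockdown CNS and 52.8 FPKM in control CNS, a ratio of 0.74, just past the limit of 0.75. Its normalized counts were 2946 in knockdown CNS and 4059 in control CNS, a ratio of 0.73. Syn shares 249 exon bases with Timp, a gene on the opposite strand with 25.0 FPKM in knockdown CNS and 26.5 FPKM in control CNS. Whether the counting used strand is not given in the sources used here, so reads of the shared bases cannot be assigned.

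The gene comt encodes NSF, the ATPase that disassembles SNARE bundles and whose temperature-sensitive alleles paralyse flies. It lies on X from 13259021 to 13262488 on the plus strand. Its level was 69.1 FPKM in knockdown CNS and 85.5 FPKM in control CNS, and both ratios were 0.81, inside the limits. Its paralog Nsf2 had a FPKM ratio of 0.89 and a count ratio of 0.91.

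Rop, the Sec1/Munc18 partner of syntaxin, lies on 3L from 4136359 to 4138996 on the minus strand, again with exons in 1 block. It had 119 FPKM in knockdown CNS and 126 FPKM in control CNS, a ratio of 0.95, and its count ratio was 0.97. By FPKM, Syx1A amounted to 0.19 of Rop in knockdown CNS and to 0.35 of Rop in control CNS. The syntaxin transcript was past the rule and that of its binding partner was not.

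The complexin gene cpx lies on 3R from 4280221 to 4304604 on the plus strand and has 21 annotated transcripts over 11414 exon bases. It had 104 FPKM in knockdown CNS and 106 FPKM in control CNS, a ratio of 0.98, and 3364 normalized counts in knockdown CNS and 3277 in control CNS, a ratio of 1.03. The direction of cpx thus differed between the tables, with both values near 1. Its place among the 10 genes also depended on the measure: it ranked number 3 of 10 by FPKM in both groups and number 8 of 10 by normalized counts per kilobase of all annotated exons. CG9780, listed at the same locus, had 5.48 FPKM in knockdown CNS and 17.7 FPKM in control CNS, a ratio of 0.31, and a count ratio of 0.51.

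By FPKM, the order of levels in knockdown CNS was nSyb, Rop, cpx, Syt4, comt, Syt1, Snap25, Syn, Syx1A and Syt7. In control CNS the first 3 and the last place were the same, and the order between them was comt, Syt4, Syt1, Syn, Syx1A and Snap25. Snap25 thus stood 2 places higher in knockdown CNS than in control CNS. Without values per library, neighbours in this order cannot be said to differ: Syx1A and Syt7 had 22.6 and 22.3 FPKM in knockdown CNS. By counts per kilobase of exon the first place in both groups went to Rop, with 1103 in knockdown CNS and 1138 in control CNS.

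Ratios of the other genes of vesicle fusion are set beside these. Of 42 such genes in 5 lists, drawn up from gene families with earlier results of these data known, 3 were lower and 2 higher in both tables, and their median log2 FPKM ratio was 0.05. Of all genes above 0 in both groups, 16.7% were lower and 16.9% higher in both tables. The 42 genes had a median of 1853.5 exon bases, and the 10 release genes one of 3690.5. All 5 other genes of the synaptotagmin and extended synaptotagmin families had FPKM ratios below 1, from 0.70 to 0.99 with a median of 0.78. Syt12 was the one past the rule, at 8.79 FPKM in knockdown CNS and 12.6 FPKM in control CNS, a ratio of 0.70. Among 3 paralogs of the release SNAREs, Snap24 and Syb had FPKM ratios of 1.08 and 1.05. Syb is a synaptobrevin, as nSyb is, and not a SNARE of the plasma membrane type. Syx4, a plasma membrane syntaxin other than Syx1A, had 26.3 FPKM in knockdown CNS and 19.4 FPKM in control CNS, a ratio of 1.36. The FPKM table lists Syx4 at one locus together with 23 other genes, among them w, which transgenes carry as a marker and which stood at a ratio of 8.63. The 16 of these other genes with values above 0 had a median ratio of 0.83.

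The SNAREs of the endoplasmic reticulum, Golgi and endosomes had the narrowest range of the 5 lists. Of all 13808 genes above 0 by FPKM, 19.3% were lower, 20.3% were higher and 7645 had a ratio above 1. None of the 19 trafficking SNAREs was lower or higher, their FPKM ratios ran from 0.96 to 1.19, and 14 of them were above 1. Bet1, a SNARE of transport to the Golgi and by FPKM the most abundant of them, had 102 FPKM in knockdown CNS and 104 FPKM in control CNS. Their median ratio was 1.08, whereas the SNAREs of release stood at 0.52 for Syx1A, 0.93 for nSyb and 1.24 for Snap25. Exons of the trafficking SNAREs summed to 858 to 2454 bases, and those of Syx1A, nSyb and Snap25 to 4164, 4072 and 2282 bases. Over all 10 release genes the range was 2282 to 11414 bases.

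Of 8 Sec1/Munc18 and SNARE disassembly genes other than Rop and comt, gammaSnap2, a cofactor of NSF, was higher at 32.2 FPKM in knockdown CNS and 23.6 FPKM in control CNS, a ratio of 1.36. The other 7 were within 25% of control. Among 7 priming and Rab3 regulators, 2 were lower. Rab3-GEF, the exchange factor of the vesicle GTPase Rab3, had 18.4 FPKM in knockdown CNS and 31.9 FPKM in control CNS, a ratio of 0.58, and Rab3 itself had a ratio of 0.98. Tomosyn, a syntaxin-binding protein that inhibits priming, had 51.2 FPKM in knockdown CNS and 69.9 FPKM in control CNS, a ratio of 0.73. Csp, a chaperone of the vesicle that keeps SNAP-25 folded, had a ratio of 0.99.

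**Figure D4:**
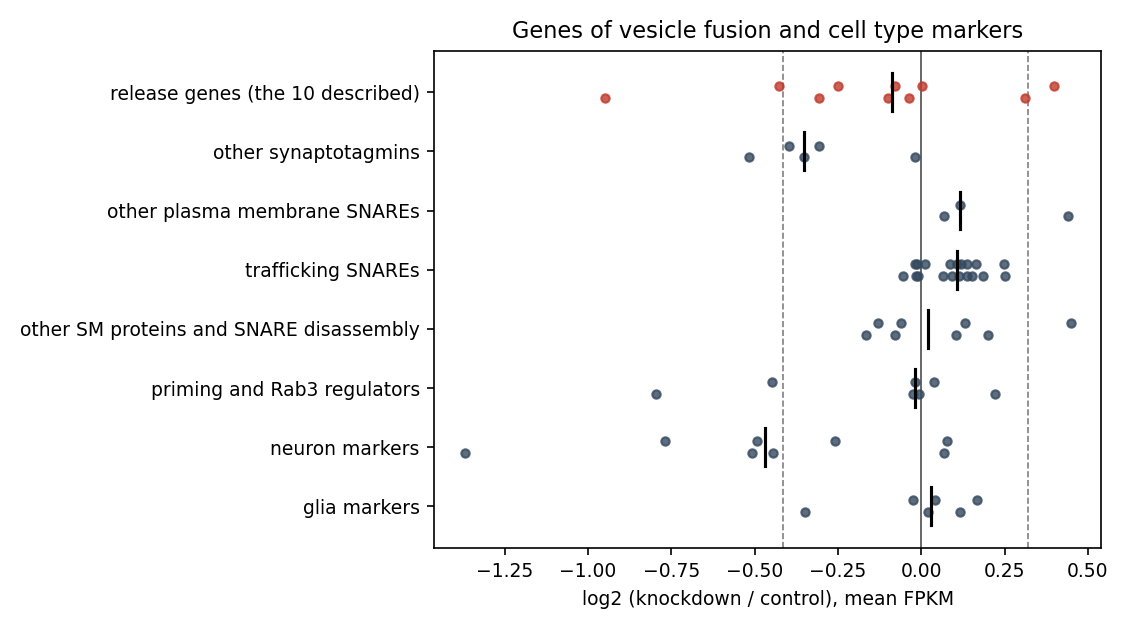
Log2 ratio of knockdown to control in mean FPKM (horizontal axis) for the 10 release genes (red), 5 lists of other vesicle fusion genes, and neuron and glia markers (dark). Each point is a gene, short black bars are medians, and dashed lines mark 25% below and above control. The list labelled other plasma membrane SNAREs also holds Syb, a synaptobrevin. The 19 trafficking SNAREs lie between 0.96 and 1.19 as ratios, whereas the release genes spread between 0.52 and 1.32.

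Ratios in these tables went with exon length, and the release genes are long. The median log2 FPKM ratio of all genes above 0 was 0.16, 0.13, 0.08, 0.01 and -0.26 in the quintiles of exon length, from the shortest to the longest. In the longest quintile, of 3458 exon bases or more, 31.0% of genes were lower and 4.47% higher. Of the 10 release genes, 5 lay in this quintile (Syt1, nSyb, Syx1A, Syn and cpx) and the other 5 in the quintile next to it. Relative to the median of their own quintile, Syx1A had a log2 ratio of -0.70 and Syn of -0.17. Syt1 lay at the median of its quintile, with a difference of 0.00, whereas nSyb and cpx lay above theirs by 0.15 and 0.22. Among the release genes of the shorter of these quintiles, comt stood at -0.32 against its median, Syt7 at 0.39 and Snap25 at 0.30. All 8 neuron markers, of 4011 to 10715 exon bases, also lay in the longest quintile, while the 6 glia markers had 1977 to 3939 exon bases. Of the other synaptotagmin genes, Syt12, Syt14, Sytbeta and Esyt2 lay in the longest quintile and Sytalpha in the quintile next to it. The 3 lower genes among the other genes of vesicle fusion, Rab3-GEF, Tomosyn and Syt12, had 8719, 6345 and 4823 exon bases. The 2 higher ones, gammaSnap2 and Syx4, had 1002 and 1709 exon bases. The part of exon length in these ratios was not tested.

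Ratios also went with read density, which bears on the abundant release genes. The authors removed duplicate reads, which by the study's methods were most of the reads sequenced. Reads which start at the same place can therefore be counted less often than they were sequenced. In the control group, Rop had 1.14 normalized counts per exon base, comt 0.995, Syt4 0.901, nSyb 0.821 and Syn 0.700, against 0.278 for Syx1A and 0.175 for Syt7. Genes of at least 10 normalized counts were split into deciles of this density. The span from percentile 5 to percentile 95 of the log2 count ratio was 3.37 in the sparsest decile and 0.50 in the densest. The median was -0.03 in the sparsest decile, -0.19 in the next and 0.07 in the densest. In the decile of Rop the span ran from -0.32 to 0.18, and in that of comt, Syt4 and nSyb from -0.31 to 0.23. In that of Syx1A it ran from -0.92 to 0.45. Within their deciles, 5.32% of genes had a lower count ratio than comt, 5.07% than Syn and 6.48% than Syx1A. The ratios of comt, Syn and Syx1A therefore ranked alike among genes of similar density, although Syx1A had the lowest ratio. Sparser genes also rest on fewer reads per exon base. Whether removal of duplicates narrowed the ratios of the denser genes, or fewer reads widened those of the sparser ones, was not tested.

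**Figure D5:**
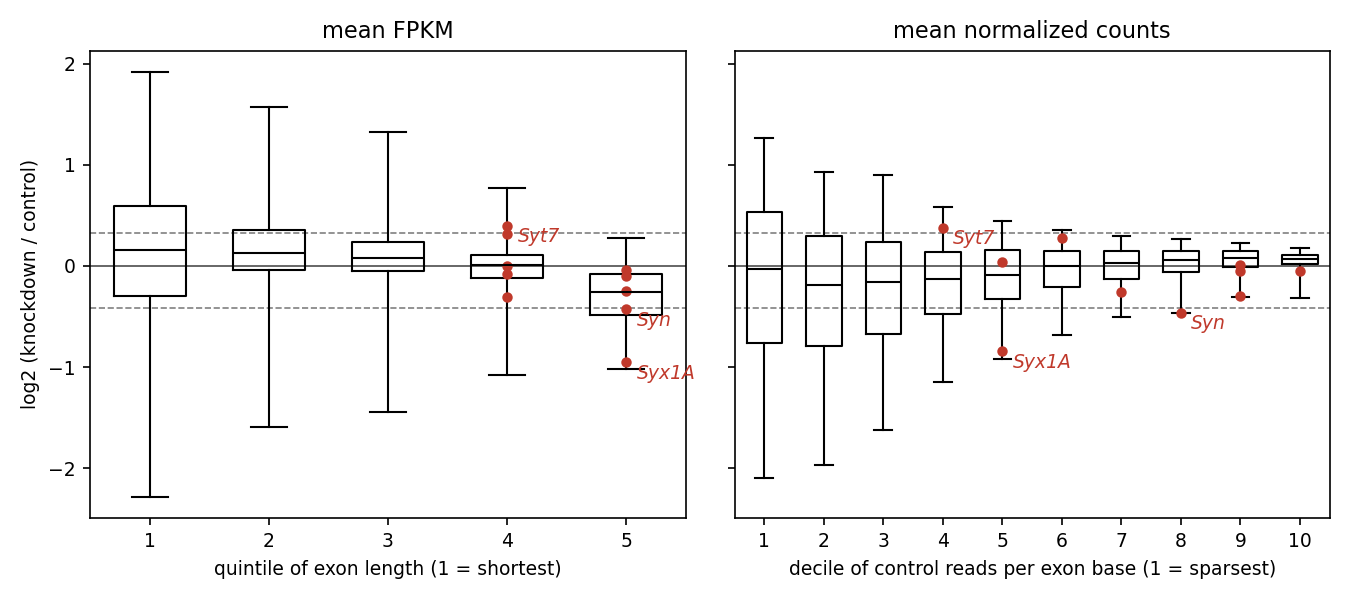
Log2 ratio of knockdown to control for all genes by quintile of exon length (left, mean FPKM) and by decile of control normalized counts per exon base (right, mean normalized counts). Boxes show the interquartile range with the median, whiskers run from percentile 5 to percentile 95, dashed lines mark 25% below and above control, and red points are the 10 release genes. The median is -0.26 in the longest quintile, the whiskers span 0.50 in the densest decile, and Syx1A lies just above the lower whisker in both panels.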

How the data were processed

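Reads were aligned by the authors to dm6 with TopHat (TopHat2 2.0.11 in the submitters' processing notes), and duplicate reads were removed with Samtools. The authors' deposited CuffDiff table (Cuffdiff 2.2.0) gives mean FPKM per group. The authors' deposited DESeq table gives means of read counts divided by size factors, used here as a signal and not as whole counts. From the table that the authors made with edgeR and deposited, only the average log2 CPM over all libraries was read. The count table does not name its groups: its overall mean equals 3 parts of one group and 2 parts of the other, to within 2.5e-09 of its value in all 15580 genes above 0, so the group with 3 parts was taken as control. The fold changes, test statistics and p-values of the authors were not used. The annotation used by the authors is not given in the sources used here.

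Ratios were computed from genes above 0 in both groups, 13808 by FPKM and 14684 by normalized counts. Exon lengths, places and transcripts came from Ensembl release 115 (BDGP6, the dm6 assembly), with 98.8% of the FPKM genes matched by symbol or synonym. The 93 genes of the lists were all found. From each list of other vesicle fusion genes, up to 4 genes past the rule in both tables were named, or else the most abundant, while other genes named (unc-13, Cadps, Nsf2, Rab3, Csp, Snap24, Syb, Syt14, Sytalpha, Sytbeta, Esyt2, genes at the members' loci and w) were added after their values were seen. The members and lists were chosen with earlier results of these data known. Alternatives changed the table, the fold rule, the centring, a pseudocount of 1 FPKM and a minimum of 1 FPKM. No sequence is printed, because the reference used here held none. Python 3.11.15, pandas 2.3.3, NumPy 2.4.6 and matplotlib 3.10.9 were used.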

Additional observations from a re-analysis of the deposited data

How the results depend on the processing

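No paired analysis was possible because the tables hold no value per library, and for the same reason no library could be left out. With normalized counts, centring on the median of all genes, 1 FPKM added to both groups, or centring on the median of the exon length quintile, the 40 resulting ratios of single release genes differed from the FPKM ratio by a factor of at most 1.19, and 6 of them lay on the other side of 1. These were cpx by normalized counts (1.03), Syt4 centred on all genes (0.98) and on its quintile (1.00), and Syt1 (1.00), nSyb (1.11) and cpx (1.16) centred on theirs. The median ratio of the 10 genes was 0.94 by FPKM and between 0.92 and 1.00 under these alternatives. Of the 2 lower release genes, 1 was lower under a rule of 0.67 and 1.5 and 0 under a rule of 0.5 and 2, while 0 were higher under either rule, against 1 (Syt7) at the 25% rule. Centred on the median of its exon length quintile, an alternative chosen after seeing the data, 1 was lower, Syx1A at 0.62, and Syn stood at 0.89. Among all genes, 1644 were lower and 1404 higher when at least 1 FPKM was required, against 2670 and 2801 without it. The depth of single libraries cannot be read from the tables, and a ratio near a limit (0.74 for Syn, 1.24 for Snap25) has no error to place it by.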

Other observations

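The average over all 5 libraries, in log2 CPM (reads scaled to library size), ran from 5.71 for Syt7 to 8.19 for Syn among the 10 release genes, a scale on which longer transcripts stand higher. The next lowest was Syx1A at 6.27, and Snap25 stood at 6.52. Of the 5 other genes of the synaptotagmin and extended synaptotagmin families, Esyt2 lay above Syt1 in both groups, with 59.6 FPKM in knockdown CNS and 73.6 FPKM in control CNS. The other 4 lay below it: Syt12, Syt14, Sytalpha and Sytbeta had 8.79, 21.7, 21.8 and 20.4 FPKM in knockdown CNS and 12.6, 27.7, 22.1 and 26.9 FPKM in control CNS.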
